A study of Mus musculus with 3 samples.

Results

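Hnf4a, Pax2, Pax8, Emx1, Tfap2b, Gata3, Elf5 and Foxi1 encode transcription factors known from the identity or formation of nephron segments, and 7 of these 8 genes were measured here. The members were all probe sets, the groups of short array probes that each report 1 transcript, whose platform annotation gives exactly 1 gene symbol that is one of these names. There were 14 such probe sets of 45101 in all. Pax2 had no probe set that met this rule and was not analysed here. Kidney RNA was measured in male C57BL/6J mice aged 16 weeks, in 1 sample labelled uninephrectomy alone and 2 samples labelled cardio-renal syndrome, each on its own Affymetrix array. In the cardio-renal mice the abdominal aorta was constricted below the point where the renal arteries branch off, a kidney was removed 2 weeks after banding, and 6 weeks later RNA was made from the kidney that was left. For the uninephrectomy-alone sample 1 kidney was removed too and the wait was the same, and the series mentions sham operations without tying them to a sample. Whether each array stands for a single mouse is not stated, so the p-values refer to the spread among these arrays, which may be technical. Values are MAS5 signals, a brightness in arbitrary units that the authors scaled to a common target on every array.

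A nephron is a chain of segments, and each segment keeps its transport genes on through a small set of transcription factors. The nuclear receptor HNF4A maintains the proximal tubule, the paired-box factors PAX2 and PAX8 act in the formation of the kidney and persist in the distal nephron and collecting duct, and the AP-2 factor TFAP2B acts in the distal convoluted tubule. GATA3 is needed for the nephric duct and collecting system, ELF5 is an ETS factor of principal cells, and the forkhead factor FOXI1 switches on the acid-base genes of intercalated cells. EMX1 is a homeobox factor best known from the forebrain and a close relative of EMX2, which is needed for the urogenital tract.

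The stretches of DNA before the transcription starts of Hnf4a and Tfap2b are shown because Hnf4a has 2 separate starts, and because both Tfap2b probe sets put cardio-renal array 1 highest and array 2 lowest. The 3' kit used here reads the end of a transcript, so the signals do not tell apart transcripts that begin at the upstream or the downstream start of Hnf4a. Each sequence is the 250 bases before a RefSeq start on GRCm38.p6, read 5′ to 3′ in the direction of transcription, and capitals mark matches to the motifs named after them. The upstream Hnf4a window lies at chr2:163506607-163506856 on the plus strand, the downstream one at chr2:163546905-163547154 on the plus strand, and the Tfap2b window at chr1:19211804-19212053 on the plus strand.
Hnf4a upstream start: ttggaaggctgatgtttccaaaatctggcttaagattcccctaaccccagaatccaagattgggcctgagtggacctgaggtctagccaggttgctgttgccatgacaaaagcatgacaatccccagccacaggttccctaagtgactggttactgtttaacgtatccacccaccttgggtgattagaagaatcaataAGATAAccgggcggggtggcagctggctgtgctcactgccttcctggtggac
Hnf4a downstream start: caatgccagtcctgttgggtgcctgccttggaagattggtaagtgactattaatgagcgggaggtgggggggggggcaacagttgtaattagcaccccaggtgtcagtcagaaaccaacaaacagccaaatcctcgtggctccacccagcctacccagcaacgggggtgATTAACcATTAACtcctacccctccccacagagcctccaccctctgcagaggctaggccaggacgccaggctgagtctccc
Tfap2b: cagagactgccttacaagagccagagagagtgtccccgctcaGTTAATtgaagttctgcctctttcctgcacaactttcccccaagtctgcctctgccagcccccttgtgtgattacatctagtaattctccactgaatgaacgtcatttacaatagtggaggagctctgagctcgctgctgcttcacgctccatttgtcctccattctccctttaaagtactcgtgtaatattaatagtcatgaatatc
The half-site of HNF1 factors, GTTAAT on either strand, was found in 2 of the 12 windows of all 8 genes and in 6.44% of 32817 windows of the same length. The downstream Hnf4a window holds it on the minus strand at 81 and again at 74 bases before the start, and the Tfap2b window holds it on the plus strand at 208 bases. The GATA motif AGATAA, in 9.99% of all windows, lay 52 bases before the upstream Hnf4a start and in no other window of these genes. The AP-2 motif GCCNNNGGC, in 13.7% of all windows, lay in 3 of the 12, among them that of Gata3 with 3 matches and that of Foxi1 with 1 at 127 bases before the start. The HNF4 repeat CAAAGTCCA, the forkhead motif GTAAACA and the box TATAAA lay in 0 of the 12 windows and in 0.384%, 3.16% and 12.4% of all windows. A match is a run of letters and not a measured binding site, and a missing match says only that these letters are not in this window. No matches of different motifs overlapped in the windows of these genes.

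The arrays were on a common scale, with median signals between 99.79 and 105.6. 2 marker groups from outside this gene family separated the arrays. Heart muscle markers had higher signals in both cardio-renal arrays for 9 of 10 genes, with summed signals of 750.4, 2362 and 1852 in the uninephrectomy array and cardio-renal arrays 1 and 2. Over all 18193 genes, 33.6% were higher and 0.407% at least 2-fold higher in both. The 5 heart muscle markers at least 2-fold higher in both were Actc1, Myl2, Myh6, Tnnt2 and Tnni3. In the uninephrectomy array Myh6 (9.929), Tnnt2 (12.37) and Tnni3 (1.968) lay below its 25th percentile of 27.6. Of the list, 0 genes passed the adjusted p of limma's fit, described below. Actc1, Pln and Tnnc1 were the brightest of the list; Pln had signals of 156.3, 291.4 and 290.8, and Tnnc1, the gene not higher in both, had 239.8, 241.7 and 238. Male-biased, androgen-dependent kidney genes had a median log2 difference of -2 in cardio-renal array 1 and 0.044 in array 2. Their brightest genes by signal were Kap, Slc7a13 and Slc22a30, at -0.42, -0.67 and -0.71 in array 1. All other genes of that list were further down in array 1. The lowest was Slco1a1, chosen after its values were seen, with signals of 6161, 22.48 and 6064. The part of these groups in the results on the transcription factors was not tested.

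None of the 14 probe sets separated the cardio-renal arrays from the uninephrectomy array by a tested difference, or by a 2-fold one with the offset used here. In limma's fit over all 45037 probe sets that are not controls, 0 of the 14 passed the Benjamini-Hochberg adjusted p of 0.05, as did 0 of all probe sets (0%); every adjusted p of the members was 1. At an unadjusted p under 0.05 limma counted 0 of the 14 and 1840 of all (4.09%). Differences below are on the scale of log2(signal + 28.8), which understates the change of dim probe sets. No member differed at least 2-fold in the same direction in both cardio-renal arrays, against 0.422% of all probe sets higher and 0.133% lower by that rule; quantile normalization turned those 190 higher and 60 lower into 158 and 82. With 1 array against 2, the smallest p an exact permutation of the arrays can give is 0.333. Signals in both cardio-renal arrays lay above the uninephrectomy array for 3 of the 14 probe sets (21.4%, against 34.7% of all) and below it for 6 (42.9%, against 29.2% of all), and 5 lay on opposite sides. The median difference of the 14 was 0.058 in array 1 and -0.11 in array 2, beside 0.023 and 0.010 over all probe sets. Both cardio-renal differences are taken against the same uninephrectomy array.

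**Figure D1:**
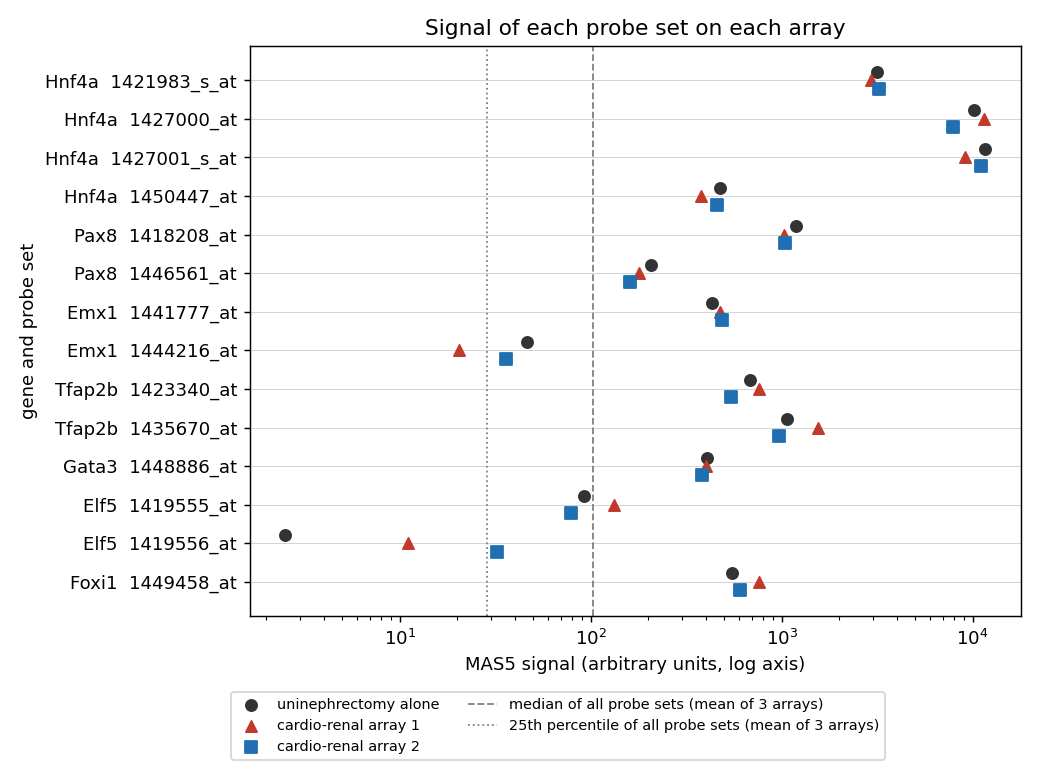
MAS5 signal (horizontal log axis, arbitrary units) of each of the 14 probe sets, with 1 point for each of the 3 arrays. The points of most probe sets lie close together, and only the dim Elf5 probe set 1419556_at (2.498, 11.02 and 32.28) and Emx1 probe set 1444216_at (46.59, 20.4 and 35.92) spread over more than 2-fold.

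Hnf4a, the proximal tubule factor, was read by 4 probe sets that did not move alike. Probe set 1427001_s_at had a signal of 11680 in the uninephrectomy array, 9090 in cardio-renal array 1 and 11048 in array 2, which on the log2 scale is a mean of -0.22 ± 0.20 (SD, n = 2). Both cardio-renal signals lay below the uninephrectomy signal, with array 2 close to it. Probe set 1427000_at, listed under the same sequence record, had signals of 10213, 11472 and 7874, so array 1 was highest and array 2 lowest. Its differences were 0.17 in array 1 and -0.37 in array 2, a mean of -0.10 ± 0.38 (SD, n = 2). Probe set 1450447_at had signals of 473.7, 377.3 and 456.1, again with array 1 lowest, at -0.18 ± 0.18. Probe set 1421983_s_at had signals of 3146, 2929 and 3241, and its differences of -0.10 and 0.042 lay on either side of zero. Array 1 was thus the lowest array in 3 of the 4 probe sets and the highest in the other, and the mean difference exceeded the gap between the cardio-renal arrays in none of the 4. The suffix of 2 of them, 1421983_s_at and 1427001_s_at, marks probes that may match more than 1 transcript.

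The proximal tubule genes around Hnf4a split between the arrays too. Of 18 measured genes of reabsorption and metabolism, 5 had higher signals in both cardio-renal arrays and 2 lower, beside 33.6% higher and 29.0% lower over 18193 genes read with 1 probe set each. Their median difference was -0.062 in array 1 and 0.072 in array 2. Kap, an androgen-regulated kidney protein, had signals of 39782, 29674 and 40588. Slc27a2, a fatty acid transporter and acyl-CoA synthetase, had 26711, 21129 and 27803, and Fbp1, a gluconeogenic phosphatase, had 24206, 22461 and 27855. All 3, the brightest of the list, were lowest in cardio-renal array 1 and highest in array 2. Kap is also one of the male-biased genes that were lower in array 1. Of the other proximal tubule factors, Maf had signals of 13194, 13178 and 15134. The nuclear receptor Ppara, which drives fatty acid oxidation, had 1611, 2099 and 1960, and the bile acid receptor Nr1h4 had 1684, 1778 and 2099. Ppara and Nr1h4 had both cardio-renal signals higher, by 0.33 ± 0.07 and 0.19 ± 0.17 (SD, n = 2), and 0 of the 3 factors were lower in both.

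Pax8 gave a lower signal in each cardio-renal array with both of its probe sets. Probe set 1418208_at had signals of 1188, 1025 and 1046, on the log2 scale a mean of -0.19 ± 0.02 (SD, n = 2). Probe set 1446561_at had signals of 205.9, 179.6 and 160.5, a mean of -0.24 ± 0.098. The uninephrectomy signal was the highest in both probe sets, and the groups did not overlap. Each mean difference exceeded the gap between the cardio-renal arrays, of -0.029 and 0.14, yet limma's adjusted p was 1 for both. Over all 14 probe sets 5 (35.7%) had a mean difference larger than that gap, beside 41.3% of all probe sets.

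Other factors and transport genes of the loop of Henle and distal nephron, where Pax8 persists, were described beside it. Of 6 other loop and distal tubule factors 1 was higher in both and 3 lay lower in both, and the medians were -0.029 and -0.088. Pou3f3, a POU factor of the loop, had signals of 3117, 3599 and 3104. The Iroquois factor Irx3 had 3030, 2711 and 2874, and the orphan nuclear receptor Esrrg had 2146, 2222 and 1991. Irx3 was the only one of these 3 with both cardio-renal signals below the uninephrectomy signal. Irx1, another Iroquois factor, chosen after its values were seen, had 593.3, 386 and 524.9, lower in both cardio-renal arrays at -0.38 ± 0.29 (SD, n = 2). Of 9 thick ascending limb genes 1 was higher and 1 lower in both, at medians of -0.017 and 0.027. Umod, the urinary protein uromodulin, had 28134, 26237 and 28669; Egf, the epidermal growth factor precursor, had 18037, 17921 and 20339; and Slc12a1, the sodium-potassium-chloride cotransporter, had 18108, 17833 and 18175. Each of these, the 3 brightest of the list, was lowest in cardio-renal array 1 and highest in array 2. Some other genes of the list shared this order, and some had array 1 above array 2. 2 genes of this list, Ptger3 and Bsnd, were chosen after their values were seen. The gene lower in both was Ptger3, a prostaglandin E2 receptor, with 3143, 2638 and 2226, at -0.37 ± 0.17 (SD, n = 2). The gene higher in both was Bsnd, with 246.5, 316.9 and 271.4, at 0.23 ± 0.14 (SD, n = 2). The nephron progenitor factors, which build the tubule with Pax2 and Pax8, had 2 of 8 genes higher in both and 2 lower, at medians of 0.17 and -0.055. Their brightest were Lhx1 (1144, 1293 and 1113), Sall1 (942.7, 1586 and 990.8) and Sim1 (516.3, 684.3 and 438.8), each highest in cardio-renal array 1. Signals of 4 of the 8 progenitor genes lay below the median of all probe sets.

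Tfap2b, the distal convoluted tubule factor, was highest in cardio-renal array 1 and lowest in array 2 with both of its probe sets. Probe set 1435670_at had signals of 1064, 1547 and 968.5, with log2 differences of 0.53 in array 1 and -0.13 in array 2. Probe set 1423340_at had signals of 682.5, 761.1 and 544, with differences of 0.15 and -0.31. The gap between the cardio-renal arrays was 0.66 and 0.46, larger than the mean differences of 0.20 ± 0.47 and -0.080 ± 0.33 (SD, n = 2), and the uninephrectomy signal lay between them. Of the 11 member probe sets at or above the median brightness, 1435670_at in array 1 was the only difference outside the 5th to 95th percentile of probe sets that bright, which ran from -0.41 to 0.50; in array 2, where it ran from -0.42 to 0.39, 0 members lay outside. By the definition of these ranges, 5% of probe sets that bright lie below them and 5% above. Transport genes of the distal convoluted tubule were described beside Tfap2b. Of 8 measured, 2 had both cardio-renal signals higher and 1 had both lower, and the medians were 0.092 and -0.0032. Calb1, the calcium-binding calbindin, had signals of 21468, 20475 and 21478; Slc12a3, the thiazide-sensitive cotransporter, had 9066, 9475 and 9165; and Slc8a1, a sodium-calcium exchanger, had 4071, 4652 and 4031. The differences of these 3 lay between -0.068 and 0.19.

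Emx1 was read by a brighter and a dim probe set that pointed in opposite directions. Probe set 1441777_at had signals of 432.7, 474.1 and 489.9, on the log2 scale a mean of 0.15 ± 0.032 (SD, n = 2), with both cardio-renal signals above the uninephrectomy signal. Probe set 1444216_at had signals of 46.59, 20.4 and 35.92, all below the median of their arrays, at -0.42 ± 0.28, with both cardio-renal signals lower. Its 1444216_at signal in array 1 lay below the 25th percentile of that array, 28.76. Its relative Emx2 had signals of 1574, 1761 and 1370, highest in cardio-renal array 1 and lowest in array 2.

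**Figure D2:**
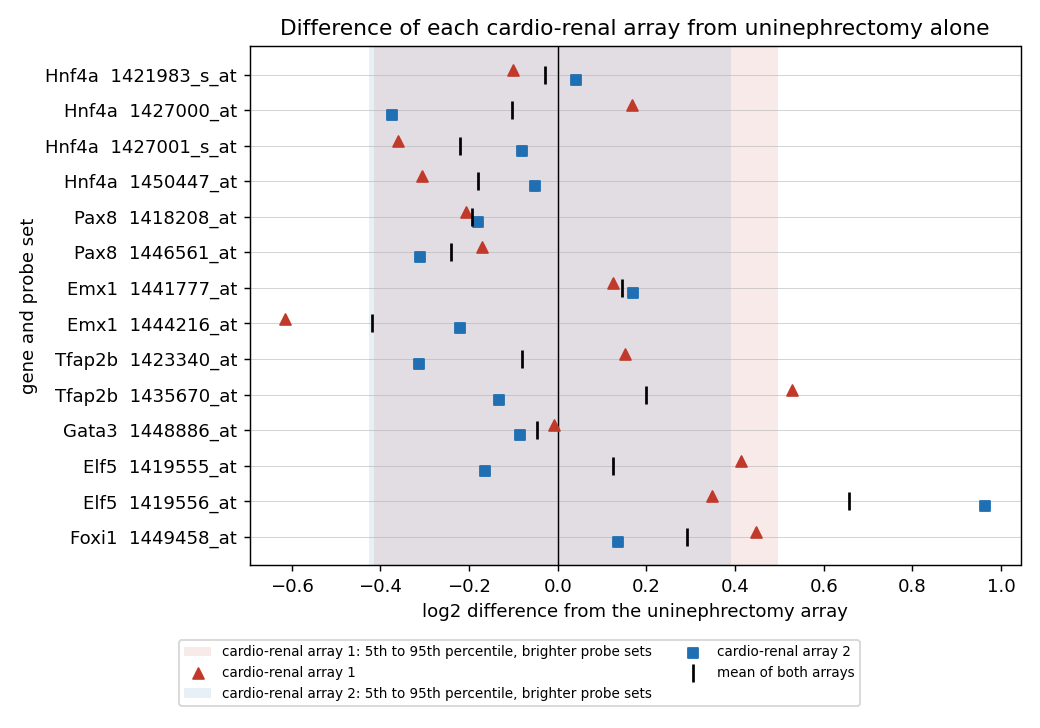
Log2 difference of cardio-renal array 1 (triangles) and array 2 (squares) from the uninephrectomy array for each of the 14 probe sets, with the mean as a black bar; shading gives the 5th to 95th percentile of all probe sets at or above the median brightness. Both Pax8 probe sets lie left of zero in both arrays, Foxi1 lies right of zero in both, and the Tfap2b arrays lie on opposite sides.

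Gata3, the collecting system factor, had nearly the same signal in all 3 arrays. Its probe set 1448886_at had signals of 406.2, 404 and 381.2, on the log2 scale a mean of -0.046 ± 0.055 (SD, n = 2). Both cardio-renal signals were lower, with log2 differences of -0.0073 in array 1 and -0.085 in array 2. Whole kidney was homogenised, so fewer cells of a type and less RNA per cell cannot be told apart. Gata3 is also active in T cells, mesangial cells, urothelium and the adrenal medulla, and markers of these were checked beside it. The mean signals of all 6 measured T cell markers lay below the median of all probe sets, with summed signals of 314.7, 307.5 and 197.9; their brightest were Cd8a, Cd3g and Cd3e, 4 had both cardio-renal signals lower and 0 had both higher, and the medians were -0.11 and -0.23. Mesangial and pericyte markers summed to 5360, 5406 and 3851, led by Agtr1a, Pdgfrb and Itga8, with 3 of 5 lower in both, 0 higher and medians of -0.038 and -0.53. Urothelium markers, led by Upk1b, Upk3a and Upk1a, summed to 555.5, 946.2 and 649.3, with the mean signals of 4 of 7 below the median of all probe sets, 3 higher in both and 1 lower, at medians of 0.55 and 0.099. Adrenal medulla markers, led by Pnmt, Dbh and Chgb, summed to 334.9, 467.4 and 460.8, with 3 of 5 below that median, 4 higher in both, 0 lower and medians of 0.36 and 0.42. Over all 18193 genes, 33.6% were higher and 29% lower in both cardio-renal arrays. The part of these cells in the Gata3 signal was not tested.

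Elf5, the principal cell factor, lay near or below the middle of the arrays' brightness. Probe set 1419555_at had signals of 92.02, 132.2 and 79.02, at the 48.6th, 54.1st and 44.9th percentile of all probe sets, with array 1 highest and array 2 lowest. Its mean log2 difference was 0.12 ± 0.41 (SD, n = 2). Probe set 1419556_at had signals of 2.498, 11.02 and 32.28, at the 3.16th, 13.3rd and 26.3rd percentile, higher in both cardio-renal arrays by 0.35 and 0.97. Its mean difference of 0.66 was the highest of the 14 with the offset of 28.8 and became 2.52 with an offset of 1, where it passed the 2-fold rule in both arrays and became the 1 member of the 14 with an unadjusted p under 0.05 in limma's fit, at an adjusted p of 1. These signals lie in the dimmest part of the arrays, and no detection calls came with the values.

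Principal cell genes were described beside Elf5 and Gata3. Of 10 measured, 4 had both cardio-renal signals higher and 3 had both lower. Their median difference was 0.19 in array 1 and -0.042 in array 2. Hsd11b2, the enzyme that shields the mineralocorticoid receptor from cortisol-like hormones, had signals of 2711, 3073 and 2649. Fxyd4, a sodium pump regulator, had 2387, 2747 and 2654, higher in both. The water channel Aqp3 had 2504, 2122 and 2385, lower in both. Aqp4 (508.1, 1213 and 745.3) and Scnn1b (281.6, 482 and 392.8), chosen after their values were seen, were higher in both. These were the 2 principal cell genes with an unadjusted p under 0.05 in limma's fit, and 0 of the list passed its adjusted p. 6 other collecting duct factors had medians of 0.13 and -0.13, with 2 higher in both and 0 lower. Their brightest were Hoxd8 (4431, 4716 and 3885), the grainyhead-like factor Tfcp2l1 (3616, 4419 and 4058) and Emx2, and of these 3 Tfcp2l1 had both cardio-renal signals above the uninephrectomy signal, by 0.23 ± 0.086 (SD, n = 2). The other factor of this list higher in both, Hoxb7, was chosen after its values were seen. Its signals of 2.793, 5.029 and 4.348 lay below the 25th percentile of each array.

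Foxi1, the intercalated cell factor, had higher signals in both cardio-renal arrays. Probe set 1449458_at had signals of 548 in the uninephrectomy array, 757.3 in cardio-renal array 1 and 605.4 in array 2. The ratios to uninephrectomy alone were 1.38 and 1.10, which on the log2 scale gave a mean of 0.29 ± 0.22 (SD, n = 2). The gap between the cardio-renal arrays, 0.31, was wider than the mean difference, and limma's adjusted p was 1.

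Of 11 measured intercalated cell genes, 5 had both cardio-renal signals higher, 2 had both lower and 4 lay on opposite sides, and the median was 0.18 in array 1 and -0.00052 in array 2. Car2, the cytosolic carbonic anhydrase, had signals of 13960, 14081 and 13596. Slc26a4, the chloride-bicarbonate exchanger pendrin of type B cells, had 2143, 3216 and 2142, high in array 1 alone. Aqp6, an intracellular water channel of type A cells, had 3423, 1714 and 2339, lower in both by 0.99 and 0.54. Some other genes, chosen after their values were seen, went in both directions. Slc4a1, the basolateral anion exchanger of type A cells, had 1865, 1157 and 1516, lower in both. Rhcg, an ammonia transporter, had 1048, 1388 and 1487 and Hepacam2 had 575.8, 828.8 and 675.2, each higher in both. In limma's fit 0 of the 11 passed the adjusted p, and 2 had an unadjusted p under 0.05.

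**Figure D3:**
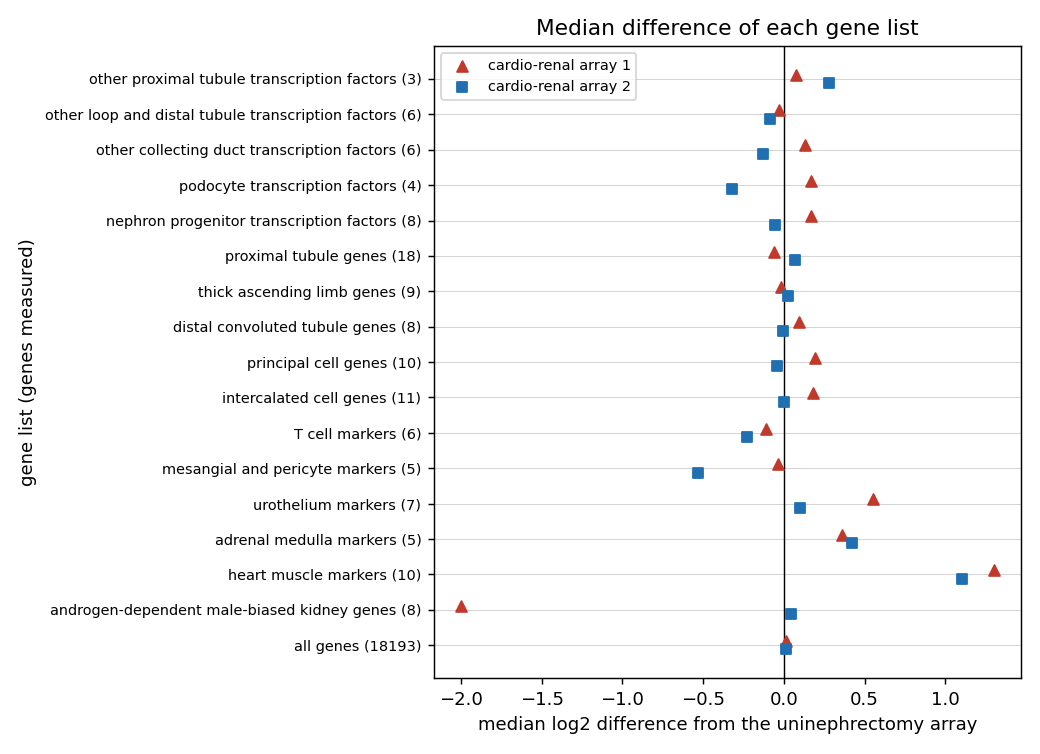
Median log2 difference of cardio-renal array 1 (triangles) and array 2 (squares) from the uninephrectomy array for each gene list, with the number of genes measured in brackets. Lists of segment genes and factors lie between -0.32 and 0.28 in both arrays, whereas heart muscle markers lie near 1.3 and 1.1 and male-biased genes at -2 in array 1. Also outside that range are mesangial and pericyte markers (-0.53 in array 2), urothelium markers (0.55 in array 1) and adrenal medulla markers (0.36 and 0.42).

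Podocyte factors, from the glomerulus outside the tubule, had 1 of 4 genes higher in both cardio-renal arrays and 1 lower, at medians of 0.17 and -0.32. Tcf21 had signals of 1263, 1382 and 670.2, Foxc2 had 332.4, 218.7 and 205.4, and Wt1 had 170.9, 203.7 and 168.3. Of these 3 only Foxc2 had both cardio-renal signals below the uninephrectomy signal, at -0.59 ± 0.057 (SD, n = 2). Lmx1b, the gene higher in both and chosen after its values were seen, had 22.19, 65.99 and 65.03, at 0.89 ± 0.01 (SD, n = 2). Its signals lay below the median of their arrays, where the offset understates a change. With the offset used here, the 5 groups of other factors and the 5 groups of segment genes had 0 genes passing the 2-fold rule. Over all 18193 genes, 0.407% were higher and 0.0989% lower in both cardio-renal arrays by that rule. Of the genes in these groups, 0 passed limma's adjusted p. At an unadjusted p under 0.05 limma counted 2 podocyte factors, 2 principal cell genes and 2 intercalated cell genes in these groups, beside 681 of all 18193 genes.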

How the data were processed

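The deposited values are intensities: linear MAS5 signals, 1 per probe set and array, which the authors made with MAS5 per the submitters' processing notes, with no version stated there. Per the labels' protocols, cRNA was made from 250 ng of total RNA. The mean after trimming 2% at each end was 500 on all 3 arrays, so no normalization was added. MAS5 takes mismatch probes off the signal, so low signals are noisy. The number of arrays limits the precision.

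Signals were turned into log2(signal + 28.8); the offset is the 25th percentile of an array, as the median of the 3. All 45037 probe sets that are not controls, unfiltered, entered a limma fit (version 3.58.1, R 4.3.3; lmFit, eBayes with trend, two-sided, Benjamini-Hochberg); it has 1 residual degree of freedom and takes the single uninephrectomy array to vary as the cardio-renal arrays do. Symbols came from the platform annotation, updated through RefSeq gene IDs (GRCm38.p6); 34945 probe sets had 1 symbol, 932 several and 9160 none here. Members kept all probe sets; other genes were read by their brightest. All 8 members had RefSeq windows.

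Members and lists were chosen with earlier results of these data known. Named genes were the members, the 3 brightest genes of each list and any list gene at least 2-fold apart in both arrays; others are marked. Alternatives were other offsets, quantile normalization, a filter on dim probe sets, other variance models, a mean of probe sets, 1 probe set a gene, and leaving out each cardio-renal array.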

Additional observations from a re-analysis of the deposited data

How the results depend on the processing

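No paired analysis was possible because the groups hold 1 and 2 samples with no numbers that pair them. Across the 2 offsets, quantile normalization, the filter and the fit without a trend, 0 of 67 member differences took another sign and 0 passed limma's adjusted p, whose lowest value was 1. The filter and the fit without a trend leave the differences themselves unchanged. An offset cannot turn the sign of a single array's difference, so many of these signs could not have turned. With any of the variance models, offsets, normalization, filter or 1 probe set a gene, limma passed 0 probe sets overall. An offset of 1 gave 1952 probe sets at least 2-fold higher and 1137 lower in both arrays and 1 such member probe set (Elf5 1419556_at); an offset of 100 gave 14 and 6. The filter, which tests fewer probe sets, left 7161 higher and 6684 lower in both, 32 and 12 of them at least 2-fold, and 11 members. A single cardio-renal array leaves no residual degree of freedom, so these are values without a test: leaving out each in turn gave 23336 to 24177 probe sets higher and 20860 to 21701 lower, 581 to 644 at least 2-fold higher, 407 to 435 at least 2-fold lower, and 4 to 7 member probe sets higher and 7 to 10 lower. Without array 1 the sign turned for Hnf4a 1421983_s_at (0.042), Tfap2b 1435670_at (-0.13) and Elf5 1419555_at (-0.16), with -0.10, 0.53 and 0.41 without array 2; without array 2 it turned for Hnf4a 1427000_at (0.17) and Tfap2b 1423340_at (0.15), with -0.37 and -0.31 without array 1. Of 118 list medians recomputed, 101 moved by no more than the SD between the arrays and 14 changed sign. Leaving out an array is judged against an SD from the same 2 arrays, so a move within it is close to built in. The male-biased genes counted as within it at -0.74 with both arrays, 0.044 without array 1 and -2 without array 2.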
